A study of Mus musculus with 6 samples.

Results

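The tumour necrosis factor (TNF) superfamily is a set of cytokines that act on a matching family of receptors, and it is described here in mouse liver together with the signalling adaptors named after it. The genes are those whose annotated symbol begins with Tnfsf (ligands), Tnfrsf (receptors), Tnfaip (TNF-alpha-induced proteins) or Traf (TNF receptor-associated factors) followed by a digit, and Tnf, Lta, Ltb, Fas, Fasl, Cd40 and Cd40lg. The oligonucleotide array named 53 such genes by 55 features, of 16887 named genes, and all 53 had a value on every array. The cDNA array named 22 by 22 features, of 6734 named genes, and 12 had a value on every array.

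The livers were of C57BL/6 females on chow with 4.4% fat, 7 weeks old when injections began. The treated group of 12 mice received 0.5 g/kg of poloxamer P-407 (a polymer surfactant used to induce hyperlipidaemia in mice) into the abdomen at 3-day intervals until day 96, and its RNA was combined into 3 pools. The control group of 4 mice received normal saline on the same schedule, and its RNA formed 1 pool. Each treated pool was labelled in Cy5 and hybridised against that control pool in Cy3 on 1 oligonucleotide and 1 cDNA array, 6 arrays in all. Every value is a ratio of a P-407 pool over the control pool, taken as log2 and positive where the gene's RNA was higher after P-407. The direction rests on the sample titles and dyes. The log base is not stated, and natural logs would make each true fold larger than the one given.

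TNF ligands are mostly made as membrane proteins that can be shed, and they act as trimers on their receptors. Some receptors carry a death domain, which recruits adaptors and caspases and can start cell death, while the others bind TRAF proteins and lead to activation of the transcription factor NF-kB. In liver, Kupffer cells and other macrophages are a known source of TNF, and hepatocytes are known to be sensitive to Fas. The arrays read RNA of whole liver, so a change in the number of cells of a type and a change in RNA per cell cannot be told apart. The files hold ratios without intensities. The label liver could therefore not be checked against levels of hepatocyte markers, and whether a gene's signal lay above background is unknown.

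Across genes, the log2 ratios of the 3 oligonucleotide arrays correlated at 0.71 to 0.80 between pools. On the cDNA arrays the correlation was 0.70 between pools 1 and 2, but 0.34 between pools 1 and 3 and 0.29 between pools 2 and 3. Genes are not independent replicates, and all arrays share the control pool, which raises these values. A gene was called where limma's adjusted p was under 0.05, with the ratios of an array type tested against 0. That p rests on the spread between treated pools and leaves out the spread between control animals. With no dye swap, a dye effect cannot be told apart from treatment. On the oligonucleotide array 43.4% of 16871 genes were called, so a call alone says little about a gene. Among 860 chemosensory receptor genes, which are known for their expression in sensory neurons of the nose, 35.9% were called. Their median absolute log2 ratio was 0.11, against 0.13 for all genes and 0.14 for the 53 TNF family genes. The largest absolute log2 ratio was 2.08 among the chemosensory receptor genes and 1.68 among the family genes.

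On the oligonucleotide array the family did not move as a block. Of 53 members, 14 were called higher in treated livers (26.4%, against 22.0% of all genes) and 8 lower (15.1%, against 21.4% of all genes), which is near the background in both directions. At 1.5-fold or more, 3 members were called higher (5.66%, against 2.12% of all genes) and 0 lower (against 1.23% of all genes). In either direction, 30 of the 53 members had an unadjusted limma p under 0.05 (56.6%, against 52.6% of all genes). The median log2 ratio was 0.06 over the members and 0.0027 over all genes. The members past 1.5-fold were Tnfaip2, Tnfsf12 and Tnfaip8. Without the prior spread that limma shares across genes, 0 members and 40 genes were called, and against a fold of 1.2 limma's treat called 4 members, all higher, and 872 of 16871 genes in either direction. Without pool 1, 11 members were called higher and 4 lower, and 4025 of the 16871 genes were called in either direction. Without pool 2, 12 members were called higher and 5 lower, with 4923 genes called, so the background fell as well.

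**Figure D1:**
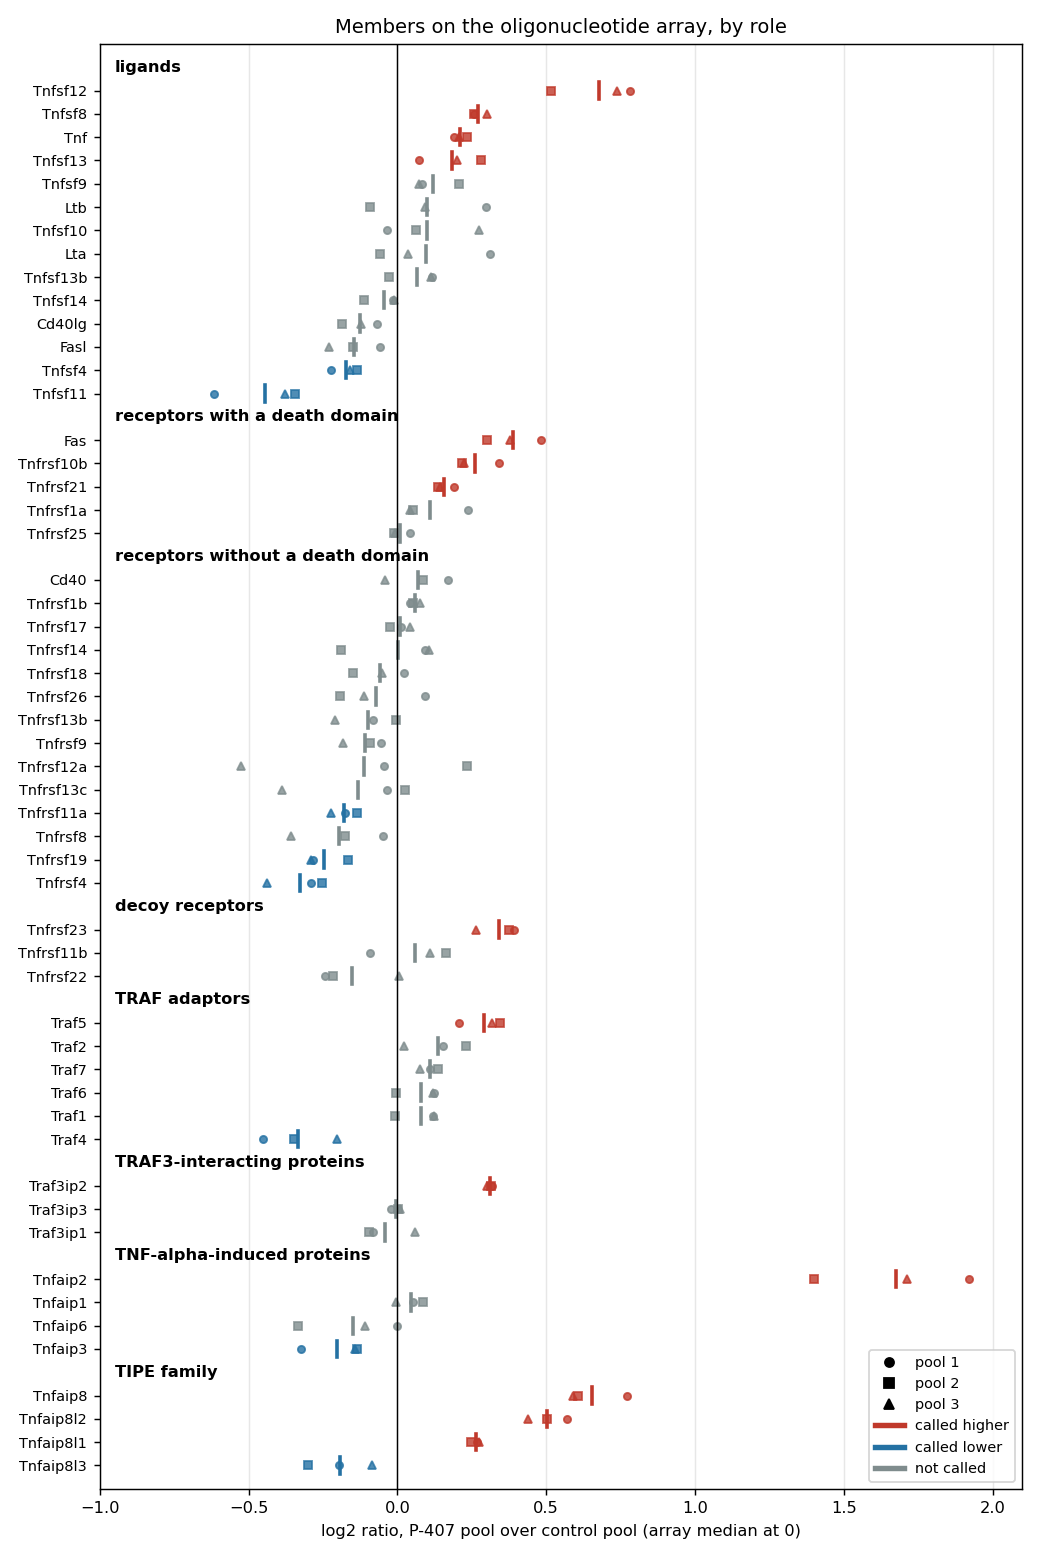
Log2 ratio of each P-407 pool over the control pool for the 53 members on the oligonucleotide array, grouped by role. Points are the 3 pools, vertical bars their mean, and colour gives limma's call; Tnfaip2 has the highest mean at 1.68, and all others but Tnfsf12, Tnfaip8 and Tnfaip8l2 average between -0.45 and 0.39.

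Tnfaip2, which encodes an exocyst-related protein induced by TNF and known for forming membrane protrusions in macrophages, had the largest mean ratio in the family on the oligonucleotide array. Its log2 ratio was 1.92 in pool 1, 1.40 in pool 2 and 1.71 in pool 3. All 3 pools lay far above 0, and the lowest of them was well above every value of any other member on the oligonucleotide array. The mean was 1.68 ± 0.26 (SD, n = 3 pools), a 3.20-fold higher level (limma adjusted p = 3.67e-04), and it placed Tnfaip2 at rank 25 of 16871 genes by increase.

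Tnfsf12 encodes TWEAK, a ligand known for acting on progenitor cells and tissue repair in liver. Its log2 ratio was 0.78 in pool 1, 0.52 in pool 2 and 0.74 in pool 3, all above 0. It was 1.60-fold higher (0.68 ± 0.14, SD, n = 3 pools, limma adjusted p = 0.0010). Tnfsf12 and Tnfsf13 also form a fusion transcript, and whether their features read it is not known. Its receptor gene Tnfrsf12a (Fn14) read -0.05, 0.23 and -0.53 in pools 1, 2 and 3. These values fell on both sides of 0 with the largest SD of any member on the oligonucleotide array, 0.38, and Tnfrsf12a was not called (adjusted p = 0.528). Tnfaip8, an apoptosis regulator that founded the TIPE family of lipid-binding proteins, read 0.77, 0.61 and 0.59 in pools 1, 2 and 3. Its pools lay close together, and the gene was 1.57-fold higher (0.66 ± 0.10, limma adjusted p = 7.14e-04).

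Of 4 measured genes of the TIPE family, 3 were called higher and 1 lower, where 22.0% of all genes were called higher and 21.4% lower. Tnfaip8l2, which encodes TIPE2, a brake on immune receptor signalling in leukocytes, read 0.57, 0.50 and 0.44 in pools 1, 2 and 3. It was 1.42-fold higher (0.50 ± 0.07, limma adjusted p = 0.0010) and was, with Tnfaip2, Tnfsf12 and Tnfaip8, among the 4 members called against a fold of 1.2. Tnfaip8l1 rose to a lesser extent, at 0.26 ± 0.01, with pools between 0.25 and 0.27. Tnfaip8l3 fell (-0.19 ± 0.11), and it was not called without pool 1 (adjusted p = 0.121) or without pool 2 (adjusted p = 0.121). Tnfaip2, Tnfsf12, Tnfaip8, Traf6 and Tnfrsf11b were named by a rule that uses their values in these data. Apart from them and the 7 genes listed by name in the choice of members, single genes described here were picked out after their values were seen.

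Of the other TNF-alpha-induced genes, Tnfaip3 encodes A20, a ubiquitin-editing enzyme that limits NF-kB. Its log2 ratio was -0.33 in pool 1, -0.14 in pool 2 and -0.14 in pool 3. All pools lay below 0, with pool 1 the lowest, and the gene fell by 0.20 on the log2 scale (SD 0.11, limma adjusted p = 0.0264). It was not called without pool 1 (adjusted p = 0.154) or without pool 2 (adjusted p = 0.0554). Tnfaip6, a hyaluronan-binding protein of inflamed tissue, averaged -0.15 ± 0.17, and Tnfaip1, an adaptor of a ubiquitin ligase, averaged 0.04 ± 0.05, and neither was called.

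Promoter windows of RefSeq (assembly GRCm38.p6, from 250 bases before to 50 bases after a gene's start) were found for 42 of the 53 members. They are shown for Tnfaip2 and Tnfsf11, the members with the largest increase and decrease on the oligonucleotide array, and for Fas and Tnf. Tnfsf12 and Tnfaip8, the other members past 1.5-fold, had no window. The windows were searched on both strands for the NF-kB consensus GGGRNNYYCC and for the AP-1 motif TGANTCA, and matches are in capitals. R stands for A or G, Y for C or T, and N for any base. The Tnfaip2 window is chr12:111442411-111442710 on the plus strand. Its capitals mark an NF-kB consensus match that reads on the opposite strand and, as printed, begins 24 bases before the start. The Fas window is chr19:34290409-34290708 on the plus strand, with an AP-1 match that begins 211 bases before the start. The Tnf window is chr17:35201958-35202257 and the Tnfsf11 window chr14:78307994-78308293, both on the minus strand and with neither motif.
Tnfaip2: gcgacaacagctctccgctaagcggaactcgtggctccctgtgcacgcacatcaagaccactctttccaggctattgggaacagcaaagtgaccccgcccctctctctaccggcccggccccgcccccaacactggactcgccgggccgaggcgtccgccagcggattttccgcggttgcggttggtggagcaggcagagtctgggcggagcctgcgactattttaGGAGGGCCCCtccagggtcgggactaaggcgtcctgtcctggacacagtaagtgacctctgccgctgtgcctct
Fas: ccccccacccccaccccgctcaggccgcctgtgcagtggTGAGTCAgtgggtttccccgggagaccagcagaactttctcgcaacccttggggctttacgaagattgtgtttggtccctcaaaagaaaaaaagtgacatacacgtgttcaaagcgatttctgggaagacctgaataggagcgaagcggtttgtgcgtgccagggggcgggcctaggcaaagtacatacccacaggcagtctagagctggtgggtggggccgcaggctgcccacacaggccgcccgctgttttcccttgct
Tnf: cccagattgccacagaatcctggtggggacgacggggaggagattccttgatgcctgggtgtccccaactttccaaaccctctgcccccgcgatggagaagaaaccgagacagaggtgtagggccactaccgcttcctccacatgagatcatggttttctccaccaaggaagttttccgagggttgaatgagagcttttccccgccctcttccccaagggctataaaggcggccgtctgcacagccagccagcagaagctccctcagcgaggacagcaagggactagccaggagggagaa
Tnfsf11: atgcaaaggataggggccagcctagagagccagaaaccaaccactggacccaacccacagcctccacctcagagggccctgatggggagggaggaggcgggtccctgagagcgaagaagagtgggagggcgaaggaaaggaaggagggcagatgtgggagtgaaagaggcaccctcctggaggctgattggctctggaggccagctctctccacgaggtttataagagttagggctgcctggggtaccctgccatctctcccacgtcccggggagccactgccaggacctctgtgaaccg

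The NF-kB consensus was present in 14.9% of the 47 windows of members, against 8.46% of all 32851 promoter windows. The AP-1 motif was present in 19.1% of the members' windows, against 7.81% of all windows. Some genes have more than 1 window. Counted per gene, 7 of 42 members held the NF-kB consensus and 8 held AP-1, against 2581 and 2425 of all 27025 genes. Of the members called higher, 2 of 10 with a window held the NF-kB consensus and 2 held AP-1, and of those called lower, 1 of 7 held each. Members that were not called held them too, among them Ltb and Tnfrsf8 for the NF-kB consensus and Tnfaip6 and Tnfsf14 for AP-1. Whether the motifs go with a call was not tested. A match to these letters is a description of the window and does not show that a factor binds there.

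Among 14 ligands on the oligonucleotide array, 4 were called higher and 2 lower, near the 22.0% higher and 21.4% lower of all genes. Tnf itself, the founding cytokine of inflammation, read 0.19, 0.23 and 0.21 in pools 1, 2 and 3. The pools agreed to within 0.02 (SD), but the increase was small, 1.16-fold (0.21, limma adjusted p = 0.0090), and the gene was not called without pool 1 (adjusted p = 0.053). On the cDNA array Tnf lay below 0 in the pools with a value, at -1.02 in pool 2 and -0.40 in pool 3. Lta and Ltb, the lymphotoxin genes of lymphocytes, lie on either side of Tnf on chromosome 17 with no other protein-coding gene between them. Lta read 0.31, -0.06 and 0.04 in pools 1, 2 and 3, and Ltb read 0.30, -0.09 and 0.09. Both were highest in pool 1 and below 0 in pool 2, and neither was called (adjusted p = 0.332 for Lta and 0.324 for Ltb).

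Tnfsf8, the CD30 ligand of activated leukocytes, read 0.26, 0.26 and 0.30 in pools 1, 2 and 3 and was 1.21-fold higher (adjusted p = 0.0040). On the cDNA array Tnfsf8 lay below 0 in the pools with a value, at -0.50 in pool 1 and -0.66 in pool 3. Tnfsf13 encodes APRIL, a survival factor of plasma cells, and it rose by 0.18 ± 0.10, with the call lost without pool 2 (adjusted p = 0.139) or without pool 3 (adjusted p = 0.0924). Tnfsf11 encodes RANKL, the ligand that drives osteoclast formation. It read -0.62, -0.34 and -0.38 in pools 1, 2 and 3, all below 0 with pool 1 the lowest. It was 1.36-fold lower (-0.45 ± 0.15, limma adjusted p = 0.0036), the largest decrease of any member on this array. Tnfsf4, the OX40 ligand, fell to a lesser extent (-0.17 ± 0.04), and was not called without pool 1 (adjusted p = 0.138) or without pool 2 (adjusted p = 0.052).

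Fasl and Cd40lg, ligands of activated T cells, were below 0 in all 3 pools and not called. Fasl read -0.06, -0.15 and -0.23 in pools 1, 2 and 3 (adjusted p = 0.0553), and Cd40lg read -0.07, -0.19 and -0.12 (adjusted p = 0.0629). The other ligands that were not called were Tnfsf9, Tnfsf10, Tnfsf13b and Tnfsf14, with means from -0.05 to 0.12. Tnfsf10, which encodes the death ligand TRAIL, averaged 0.10 ± 0.16, and Tnfsf13b, which encodes the B cell factor BAFF, 0.07 ± 0.08.

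Receptors were read in groups by type. Of 5 receptors with a death domain, 3 were called higher and 0 lower, with a median of 0.16. Of 14 receptors without one, 0 were called higher and 3 lower, with a median of -0.10. Over all genes 22.0% were called higher and 21.4% lower, so the 3 of 14 called lower lie at the background, and the difference between the receptor types was not tested. Of the 3 death-domain receptors called, Tnfrsf21 lost its call without any 1 of the pools and Tnfrsf10b without pool 1.

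Fas, the receptor of Fasl, read 0.48, 0.30 and 0.38 in pools 1, 2 and 3. All pools were above 0, and Fas was 1.31-fold higher (0.39 ± 0.09, limma adjusted p = 0.0027) while its ligand was not called. Tnfrsf10b, the mouse TRAIL receptor, read 0.34, 0.22 and 0.22 and was higher (0.26 ± 0.07, adjusted p = 0.0069, and 0.0525 without pool 1). Tnfrsf21, or DR6, was read by a pair of features, of which 1 was called when tested by itself (0.24, adjusted p = 0.0072) and the other was not (0.07, adjusted p = 0.187). Their mean was 0.16 ± 0.03, and the call was lost without any 1 of the pools (adjusted p = 0.154 without pool 1, 0.0681 without pool 2 and 0.0557 without pool 3). Tnfrsf1a, the main TNF receptor of most cells, averaged 0.11 ± 0.11 with pool 1 the highest at 0.24, and Tnfrsf25, or DR3, averaged 0.01 ± 0.03. Neither was called.

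Among the receptors without a death domain, Tnfrsf4, or OX40, a receptor of activated T cells, read -0.29, -0.25 and -0.44 in pools 1, 2 and 3. It was 1.25-fold lower (-0.33 ± 0.10, adjusted p = 0.0049), so both OX40 and its ligand gene were called lower. The neighbouring gene Tnfrsf18, or GITR, averaged -0.06 ± 0.09 and was not called. Tnfrsf19, or TROY, fell by 0.25 on the log2 scale (SD 0.07, adjusted p = 0.0084, and 0.060 without pool 1). Tnfrsf11a, or RANK, read -0.18, -0.14 and -0.22 and was also lower (-0.18 ± 0.04, adjusted p = 0.0176), with the call lost without pool 1 (adjusted p = 0.0945) or without pool 3 (adjusted p = 0.0585). The ligand and the signalling receptor of the RANK system were therefore both called lower with all pools used.

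Tnfrsf9 (4-1BB), a costimulatory receptor of T cells, averaged -0.11 ± 0.06, and Tnfrsf14 (HVEM), the receptor of Tnfsf14, 0.0025 ± 0.17, and neither was called. Cd40, the receptor through which T cells activate B cells and macrophages, read 0.17, 0.08 and -0.04 in pools 1, 2 and 3. These values straddled 0, and Cd40 was not called (adjusted p = 0.316). Tnfrsf1b, the other TNF receptor, read 0.04, 0.05 and 0.08, with an adjusted p of 0.281. The receptors of BAFF and APRIL, Tnfrsf13b, Tnfrsf13c and Tnfrsf17, averaged -0.10 ± 0.10, -0.13 ± 0.22 and 0.01 ± 0.03, and none was called. Tnfrsf8, or CD30, averaged -0.20 ± 0.16 and missed the threshold (adjusted p = 0.0542, and 0.0477 without pool 1), while its ligand Tnfsf8 was called higher.

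The decoy receptors bind ligand without signalling. Tnfrsf23, a mouse decoy receptor for TRAIL, read 0.39, 0.37 and 0.26 in pools 1, 2 and 3 and was 1.27-fold higher (adjusted p = 0.0030). Its neighbour on chromosome 7, Tnfrsf22, is a decoy of the same kind and read -0.24, -0.22 and 0.01, with an adjusted p of 0.0883 (0.0203 without pool 3, where it was called lower). These genes are close copies of each other, and whether each feature reads only its own gene is not known. The gene next to that, Tnfrsf26, averaged -0.07 ± 0.15 and was not called. Tnfrsf11b, osteoprotegerin, which binds RANKL, read -0.09, 0.16 and 0.11 on this array and was not called (adjusted p = 0.449).

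**Figure D2:**
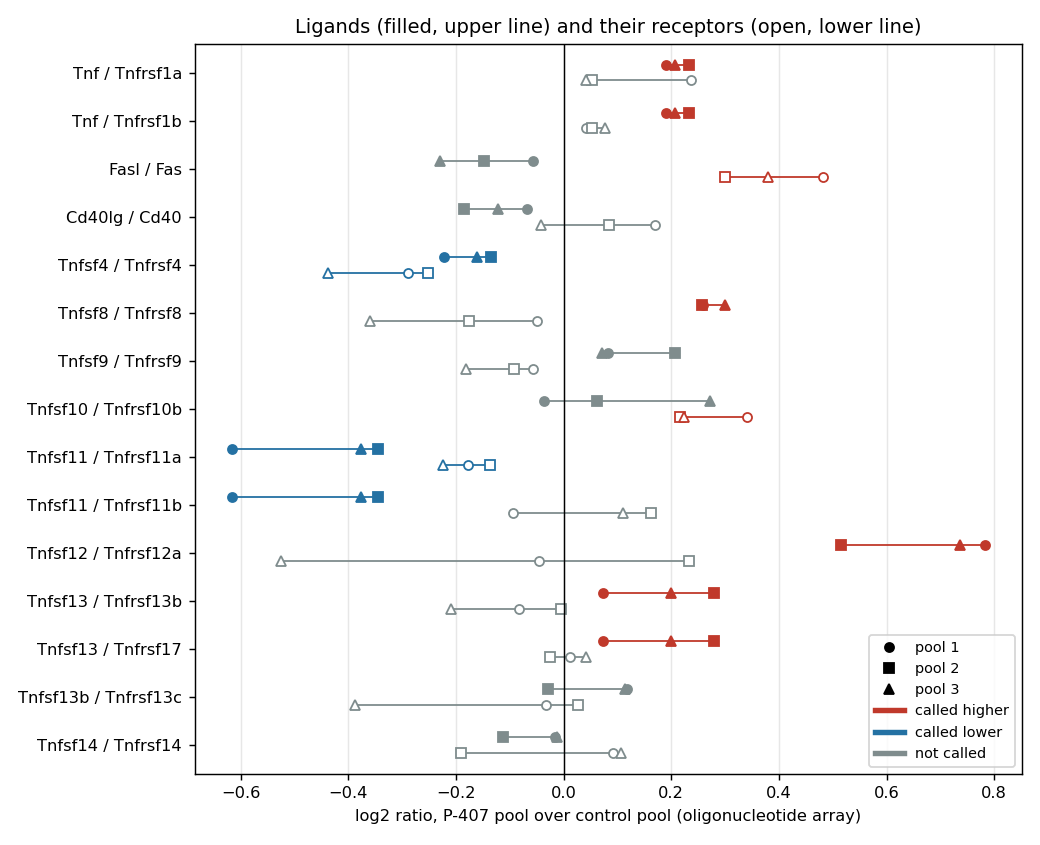
Log2 ratio of each P-407 pool over the control pool for ligand genes (filled, upper line of each row) and receptor genes (open, lower line) on the oligonucleotide array. Both genes were called lower in the rows of Tnfsf4 with Tnfrsf4 and of Tnfsf11 with Tnfrsf11a, and in no row shown were both called higher. Of all single genes 21.4% were called lower, and a background for both genes of a pair was not counted. The calls of Tnfsf4 and Tnfrsf11a were each lost without pool 1. Tnfsf4 also lost its call without pool 2, and Tnfrsf11a without pool 3.

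Of 6 TRAF adaptors, 1 was called higher and 1 lower, near the 22.0% and 21.4% of all genes. Traf5, which links several receptors to NF-kB, read 0.21, 0.35 and 0.32 in pools 1, 2 and 3 and was 1.22-fold higher (adjusted p = 0.0051). Traf4, known for roles in development and cell polarity, read -0.45, -0.35 and -0.20 and was 1.26-fold lower (adjusted p = 0.0065). Traf6, which also serves Toll-like and interleukin-1 receptors, was read by a pair of features that disagreed. One read 0.32, 0.27 and 0.30 in pools 1, 2 and 3 and was called when tested by itself (adjusted p = 0.0034). The other read -0.07, -0.28 and -0.07 and was not (adjusted p = 0.10). Their mean was 0.08 ± 0.07, and no direction is given for Traf6. Traf1, Traf2 and Traf7 averaged 0.08, 0.14 and 0.11, and none was called, although Traf2 was without pool 3 (0.19, adjusted p = 0.0379).

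The proteins named for binding TRAF3 are not TRAFs themselves. Traf3ip2 encodes Act1, the adaptor of interleukin-17 receptors, and read 0.32, 0.32 and 0.30 in pools 1, 2 and 3. It had the smallest SD of any member on the oligonucleotide array, 0.0089, and was 1.24-fold higher (adjusted p = 0.0026). Traf3ip1, a protein of cilia, and Traf3ip3, a protein of lymphocytes, averaged -0.04 and -0.0042 and were not called.

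The 31 members that were not called had means from -0.20 to 0.14, and in 12 of them all 3 pools lay on 1 side of 0. The matching share over all genes was not counted. The 22 called members all had 3 pools of 1 sign, and their adjusted p reached 0.0339. A shared sign is no separate support for a call, because a call against 0 and the shared control pool both favour it. Among these 22, pool 1 lay farthest from 0 in 13 (59.1%), pool 2 in 4 and pool 3 in 5. Among all 7318 called genes, pool 1 lay farthest from 0 in 34.6%.

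The same RNA was read on the cDNA array after direct labelling of 10 ug, in place of amplification from 0.5 ug. Both array types share the RNA pools and the control, so their values are given side by side and no agreement between them is counted. Spread between pools was larger on the cDNA array, with a median SD of 0.33 for the 12 complete members, against 0.080 for the same genes on the oligonucleotide array. Limma called 0 of 5011 genes on the cDNA array (0%), with 1518 at an unadjusted p under 0.05 (30.3%) and 1 gene called without the shared prior, and 1 of the 12 members had an unadjusted p under 0.05.

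That member was Tnfrsf11b, osteoprotegerin. On the oligonucleotide array it read -0.09, 0.16 and 0.11 in pools 1, 2 and 3, and on the cDNA array 2.29, 0.92 and 1.60. The arrays did not overlap, with every cDNA value above every oligonucleotide value. The difference, oligonucleotide minus cDNA, was -1.54 ± 0.35 (SE, n = 3 arrays of each type, limma adjusted p = 0.0473). Of 4702 genes on both array types, 11.4% were called different and 5.17% lower on the oligonucleotide array, and Tnfrsf11b was the 1 member of 12 called. With the pool as a block, the adjusted p was 0.138, and without centring it was 0.0534. Leaving out 1 pool gave adjusted p-values of 0.111 to 0.259 for Tnfrsf11b, while without pool 3 the difference was called for Traf1 (-1.58, adjusted p = 0.0242). Averaged over both array types, Tnfrsf11b stood at 0.83 ± 0.28 and was not called (adjusted p = 0.0534), where 5.10% of genes were called and 0 of 12 members, with 2 members at an unadjusted p under 0.05 against 36.3% of genes. Without pool 3, 1 member was called in that average, Traf1 (0.85, adjusted p = 0.0449).

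Over 4702 genes, the mean ratios of the 2 array types correlated at 0.35, a value that the shared pools and control raise. Tnfrsf10b, picked as the member of 12 with the smallest difference, read 0.34, 0.22 and 0.22 on oligonucleotide arrays. On cDNA arrays it read 0.29, 0.27 and 0.24. The difference was -0.0069 with an SE of 0.098, and the adjusted p of the average over both was 0.0956. Traf5, called higher on the oligonucleotide array, read -0.28, 0.10 and 0.01 on cDNA arrays. Tnfrsf4, called lower on the oligonucleotide array, read 0.00, 0.39 and 0.03 there. Neither difference between array types was called (adjusted p = 0.139 for Traf5 and 0.0926 for Tnfrsf4).

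Cd40 on cDNA arrays read -0.81, -0.07 and -0.39 in pools 1, 2 and 3, and Lta read 0.24, 0.63 and 0.08. Tnfrsf1a read -0.09, 0.08 and -0.24 there, and Tnfrsf1b -0.47, -0.40 and -0.14. The widest cDNA values were in Tnfrsf17 (-1.04, -3.79 and -0.50), Tnfrsf9 (-0.36, 0.23 and -2.90), Traf1 (1.5, 1.78 and -0.35) and Traf3ip1 (0.74, 2.1 and -0.07). The oligonucleotide values of these 4 genes lay between -0.18 and 0.12.

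**Figure D3:**
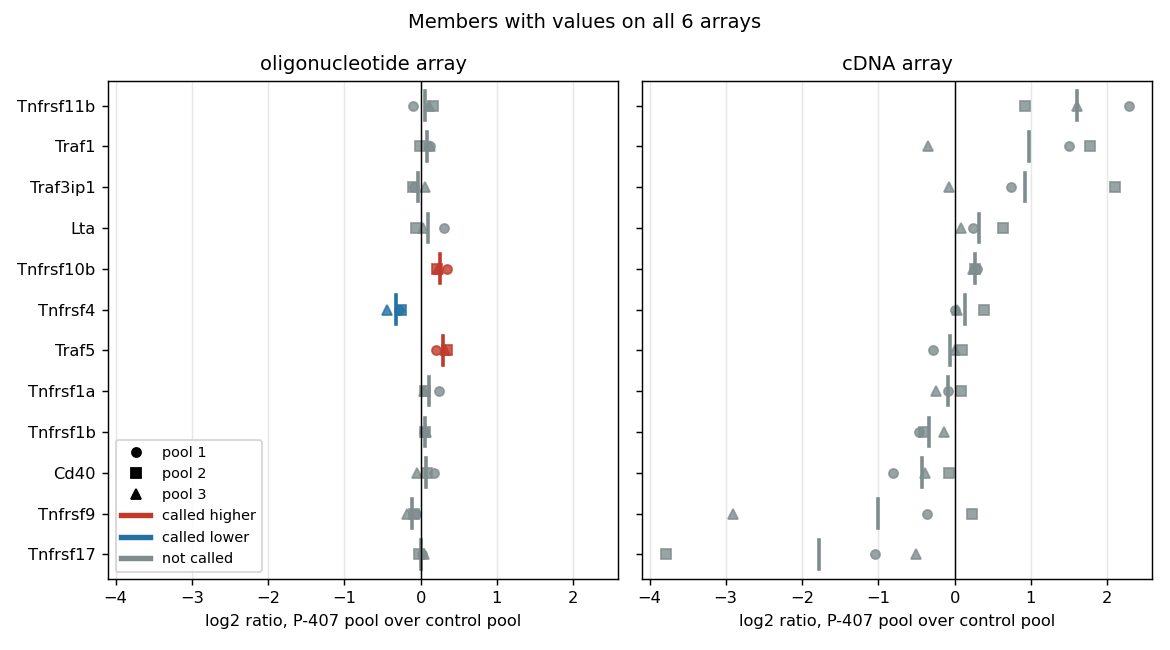
Log2 ratio of each P-407 pool over the control pool for the 12 members with values on all 6 arrays, oligonucleotide arrays on the left and cDNA arrays on the right. Points are pools and vertical bars their mean; Tnfrsf11b averages 0.06 on oligonucleotide arrays and 1.60 on cDNA arrays.

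The other 10 members on the cDNA array had a value of exactly 0, treated as not measured, on at least 1 array, and were not tested. Tnfaip8l2 read 3.12 in pool 1 and 1.18 in pool 3, both above 0 as on the oligonucleotide array. Tnf read -1.02 in pool 2 and -0.40 in pool 3, and Tnfsf8 read -0.50 in pool 1 and -0.66 in pool 3, so both lay below 0 where the oligonucleotide values lay above it. Tnfsf11 read -0.16 in pool 2 and -2.02 in pool 3. Traf3ip2 (1.45 and -1.16), Traf2 (1.07 and -0.56) and Tnfaip6 (1.22 and -2.52) had opposite signs in pools 1 and 3. Tnfrsf23 (0.38), Traf4 (-0.29) and Traf7 (0.25) had a value in pool 3 alone. A further cDNA feature named Tnfsf12, Tnfsf13 and their fusion gene together and was left out of the tests, with 0.73, 0.38 and 0.19 in pools 1, 2 and 3.

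Genes of the pathway outside the family were read from lists on the oligonucleotide array, where 22.0% of all genes were called higher and 21.4% lower. Of 27 adaptors, ubiquitin enzymes and kinases next to the receptors, 10 were called higher and 2 lower (median 0.10, against 0.0027 for all genes). Ripk3, the kinase of necroptosis, averaged 0.66 ± 0.13 (adjusted p = 0.0010), and Mlkl, the pore protein it activates, 0.60 ± 0.06 (adjusted p = 5.95e-04). Birc3, a ubiquitin ligase bound to TRAF proteins, fell (-0.47 ± 0.09, adjusted p = 0.0015). Tnip1, a partner of A20, averaged 0.38 ± 0.07 (adjusted p = 0.0024). Of 15 caspase and Bcl2 family genes, 5 were higher and 1 lower (median 0.03), with Casp2 at 0.39, Bak1 at 0.31, and Casp8, the caspase of death receptors, at 0.20 among the higher.

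Of 12 NF-kB subunits and regulators, 5 were higher and 3 lower, with a median of -0.01. Nfkb2 of the noncanonical pathway rose by 0.36 ± 0.11, while Ikbkb (-0.35 ± 0.07), Rel (-0.30 ± 0.07) and the inhibitor Nfkbia (-0.32 ± 0.13) fell. Of 23 genes known as NF-kB targets, 11 were higher and 3 lower (median 0.24). Vcam1 averaged 2.06 ± 0.15, Ccl2, a monocyte chemokine, 1.23 ± 0.08, and Cxcl10 0.99 ± 0.10, whereas Il1b fell (-1.71 ± 0.24). Of 7 genes that process or shed TNF ligands and receptors, 2 were higher and 1 lower (median 0.05). Adam17, the enzyme that sheds TNF, rose by 0.36 ± 0.09, Adam10 by 0.27 ± 0.13, and Furin fell (-0.36 ± 0.11). Of 11 superfamily genes and relatives whose symbols fall outside the choice of members, 3 were higher and 1 lower (median 0.06), with Ltbr, the lymphotoxin beta receptor, at -0.22 ± 0.06 and Cd27 at 0.19 ± 0.07.

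Markers of other cell types moved in the same pools. Of 12 measured macrophage and Kupffer cell markers, 9 were called higher and 2 lower, with a median of 1.57 in pool 1, 1.28 in pool 2 and 1.25 in pool 3. Their means ran from -1.24 (Marco) to 4.63 (Gpnmb). Of 7 neutrophil markers 6 were higher and 0 lower, of 9 markers of stellate cells and fibroblasts 8 and 0, of 10 T and NK cell markers 6 and 1, and of 8 B and plasma cell markers 3 and 0. Of 8 dendritic cell markers 3 were higher and 2 lower, and of 4 cholangiocyte markers 1 and 0. Of 8 endothelial markers 0 were higher and 2 lower, and of 10 hepatocyte markers 0 were higher and 6 lower, with a median of -0.49 in pool 1, -0.44 in pool 2 and -0.57 in pool 3. The part of these cell types in the ratios of Tnfaip2, Tnfsf12, Tnfaip8l2 and the other members was not tested.

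**Figure D4:**
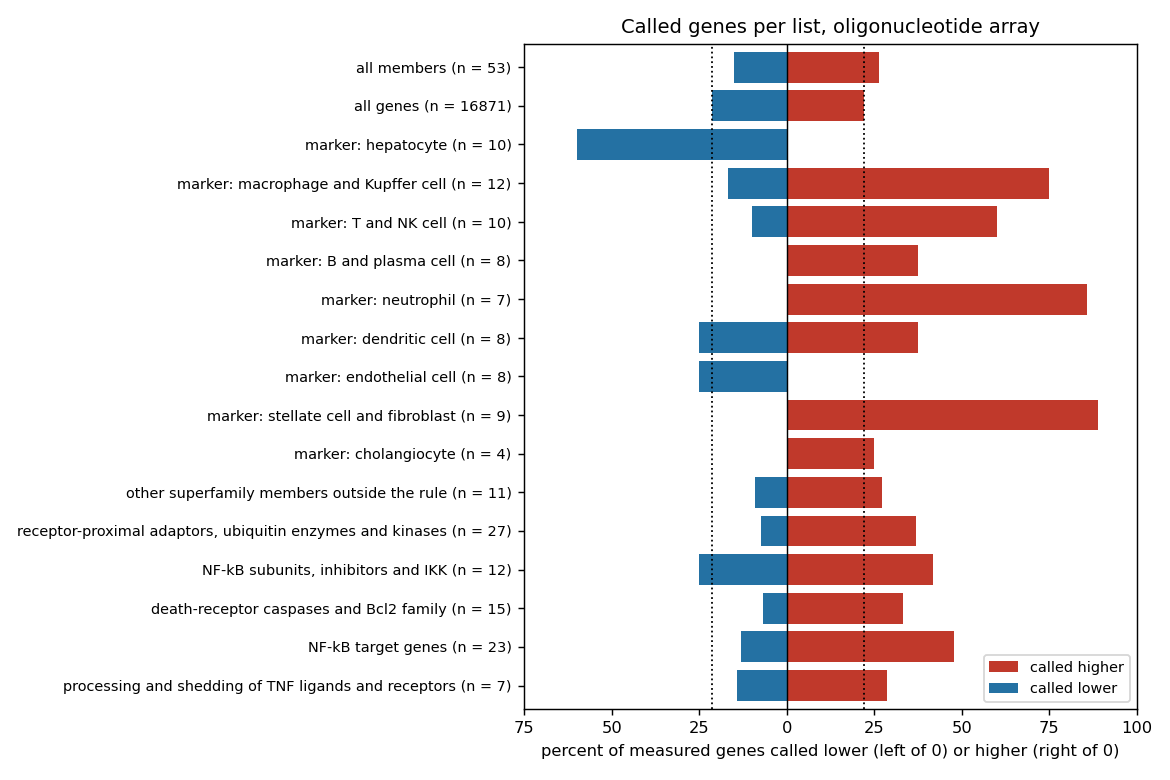
Percent of the measured genes of each list called higher (right of 0) or lower (left of 0) in P-407 livers on the oligonucleotide array, with dotted lines at the values for all genes. The 53 members, at 26.4% higher and 15.1% lower, lie near all genes at 22.0% and 21.4%, while macrophage markers have 9 of 12 called higher.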

How the data were processed

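RNA of 3 P-407 liver pools and 1 control pool was read on 2-colour Agilent arrays. The authors deposited 1 log ratio per feature and array, read here as log2; per the labels' protocols, RNA was labelled directly (cDNA array) or after amplification (oligonucleotide array). The sources used here do not give the authors' background correction, normalization or filters. Precision is limited by how many arrays there are, and signal over background is unknown.

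A deposited 0 was taken as missing (1257 to 1277 features per oligonucleotide array, 3421 to 5332 per cDNA array), and the median of an array's other features was then subtracted. Gene names came from GEO's annotation of the arrays, where 18658 of 22575 oligonucleotide features had 1 gene, 30 several and 3887 none. Of 13482 cDNA features 7410 named 1 gene, 438 several and 5634 none. The gene ID of 18445 and 7332 features was found in a RefSeq table of GRCm38.p6. A gene's complete features (3 of 3 arrays) were averaged. Each array type was fitted with limma 3.58.1 (lmFit, eBayes) in R 4.3.3 against 0, with Benjamini-Hochberg adjustment over all genes. The script was run on simulated ratios with independent noise. These held no shared control pool and no dye effect, so the run could not test what those do to the calls. The control pool counts as 1 control sample, so the spread between control animals is left out, and with no dye swap a dye effect cannot be told apart from treatment. For genes on both array types, the arrays of a pool were averaged. The array difference was fitted with no block at first. Pool numbers pair the arrays because the labels split each RNA over both types, and same-pool deviations correlated at 0.06, 0.07 and 0.07. Tables and plots used Python 3.11.15, pandas 2.3.3 and matplotlib 3.10.9.

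Members and lists were chosen with earlier results of these data known. Of 191 list entries, 190 matched a current symbol. Named by rule are members called at 1.5-fold or more, members called on the cDNA array or over both types, members differing between array types or between features in sign, and Tnf, Lta, Ltb, Fas, Fasl, Cd40 and Cd40lg; for lists, up to 4 genes of smallest p, and others named were picked after their values were seen. Alternatives changed the centring, scaling, zeros, feature averaging, missing values, moderation and fold tested, and left out each pool.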

Additional observations from a re-analysis of the deposited data

Results flagged for a closer look

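The ratio of Tnfrsf11b, osteoprotegerin, was called different between the array types in the fit without a block. Both arrays of a pool read the same RNA, so the fit with the pool as a block is the paired one. The ratio averaged 0.06 ± 0.14 on the oligonucleotide array and 1.60 ± 0.69 on the cDNA array (SD, n = 3 pools each). The fitted difference, oligonucleotide minus cDNA, was -1.54 on the log2 scale (limma adjusted p = 0.0473). Each array type reads the gene by 1 feature. The adjusted p was 0.138 with the pool as a block, 0.0534 without centring and 0.111 to 0.259 with 1 pool left out.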

How the results depend on the processing

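On the oligonucleotide array the count of called members stayed at 14 or 15 higher and 8 or 9 lower under changes of centring, zeros, feature averaging, missing values, robust moderation and scaling. Leaving out 1 pool gave 4025 to 6244 called genes, 11 to 13 members higher and 4 to 8 lower. Without the shared prior, 40 genes, 0 members higher and 0 lower were called, and Tnfaip2 then had an adjusted p of 0.0811. Limma's treat against a fold of 1.2 called 872 genes, 4 members higher and 0 lower. On the cDNA array 1 gene was called without the shared prior and 0 under the other settings run, with 0 members. Averaged over both types, leaving out 1 pool gave 0 to 531 called genes and 0 to 1 members higher. For the array difference, leaving out 1 pool gave 0 to 1062 called genes and 0 to 1 members lower. With the pool as a replicate block, 0 genes and 0 members were called for the array difference, with an adjusted p of 0.138 for Tnfrsf11b, and without centring 0 members. The cause of these changes was not tested. No called member changed sign under the settings run. With all 3 pools of each called member on 1 side of 0, leaving out a pool could not change it, so this is no support.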
